A study of Mus musculus with 15 samples.

Results

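Granule neuron precursors of the mouse cerebellum were compared at postnatal day 7 (P7) and postnatal day 1 (P1). The comparison takes 6 of the 15 libraries of the study, 3 labelled P7 and 3 labelled P1, chosen by their titles. Both groups carry the genotype label wild type, and per the labels the cells of both were purified from cerebellum by Percoll fractionation and lysed at once in Trizol, and poly(A) RNA was sequenced. Age is the only labelled difference. The other libraries, which enter the fit only to estimate the spread or are named beside a value, are granule neuron precursors at E15.5 with the genotype label Math1-GFP, wild-type cells at P14, and medulloblastoma cells from Ptch1 heterozygous mice. The labels do not say whether the 3 libraries of an age came from separate animals or pools, so the p-values measure the spread between these libraries, which may be technical. Percoll fractionation separates cells by density and does not select for a marker, so other cerebellar cells can remain.

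Granule neuron precursors arise in the rhombic lip, cover the surface of the cerebellum as the external granule layer and divide there after birth under Sonic hedgehog from Purkinje cells. Cells that leave the cycle switch on neuronal adhesion and cytoskeletal genes, migrate inward and later express the receptors and channels of mature granule neurons. In the mouse, proliferation in this layer is high at both ages, and P7 lies near its peak. The study asked which genes rise as these cells differentiate and, by its title, how the histone methyltransferase Ezh2 bears on that, and the step from P1 to P7 is the one within its postnatal precursor phase.

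The libraries held 21550266 to 24962668 counts in genes at P1 and 26291590 to 36672071 at P7, and 16879 to 17286 genes had a count in a library. Expression is given as CPM, a gene's counts scaled to a common library size. The granule lineage factors Zic1, Pax6 and Barhl1 were present in all 6 libraries, at 1262 to 2182, 425 to 858 and 252 to 486 CPM. Atoh1, the factor that defines dividing granule precursors, stood at 65.4, 53.3 and 24.5 CPM in P1 replicates 1 to 3 and at 23.6, 39.1 and 29.2 CPM in P7 replicates 1 to 3. The library labelled P1 replicate 3 lay nearer to P14 than to its own age: its root mean square distance in log2 CPM was 0.448 to the mean of the P14 libraries, 0.592 to the other P1 libraries and 0.612 to the P7 mean. P1 replicates 1 and 2 lay at 1.02 and 0.838 from the P14 mean and at 0.594 and 0.434 from the other libraries of their own age. The P7 libraries lay at 0.753 to 0.885 from the P14 mean. Whether the label of P1 replicate 3 is right was not tested. Counts over all genes, list counts that changed and named genes whose call turned on this library are given with and without it.

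Few genes were called different between P7 and P1 in the main edgeR test, and the largest changes among them were falls. The genes that fell included the oncofetal genes Igf2bp1, Igf2bp2, Lin28b and Hmga2, the Fgf ligand genes Fgf15 and Fgf8, the axon guidance genes Slit1, Robo3 and Sema3a, and Deup1, a gene of multiciliated cells. The rises were smaller and fell on genes such as Rnd2, which promotes migration of newborn neurons, the secreted C1q-like protein C1ql1 and the chromatin remodelling subunit Smarcc2. At P7, 214 (1.4%) of the 15259 genes in the edgeR quasi-likelihood test were higher and 266 (1.74%) lower than at P1, at a Benjamini-Hochberg adjusted p under 0.05. At least a 2-fold change was reached by 74 of the higher and 234 of the lower genes. The P7 and P1 libraries did not overlap in any of the 214 higher genes, and in 263 of the 266 lower ones. Over all genes tested the same gap was seen in 2144 (14.1%) with P7 higher and 2239 (14.7%) with P7 lower. An unadjusted edgeR p under 0.05 was seen in 3055 of the 15259 genes, both directions together. In the transcript table the representative transcript made the same call in 169 of 204 higher and 231 of 250 lower genes that had one tested there, where 1.41% and 1.75% of all transcripts were called, and 1 gene had the opposite sign.

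**Figure D1:**
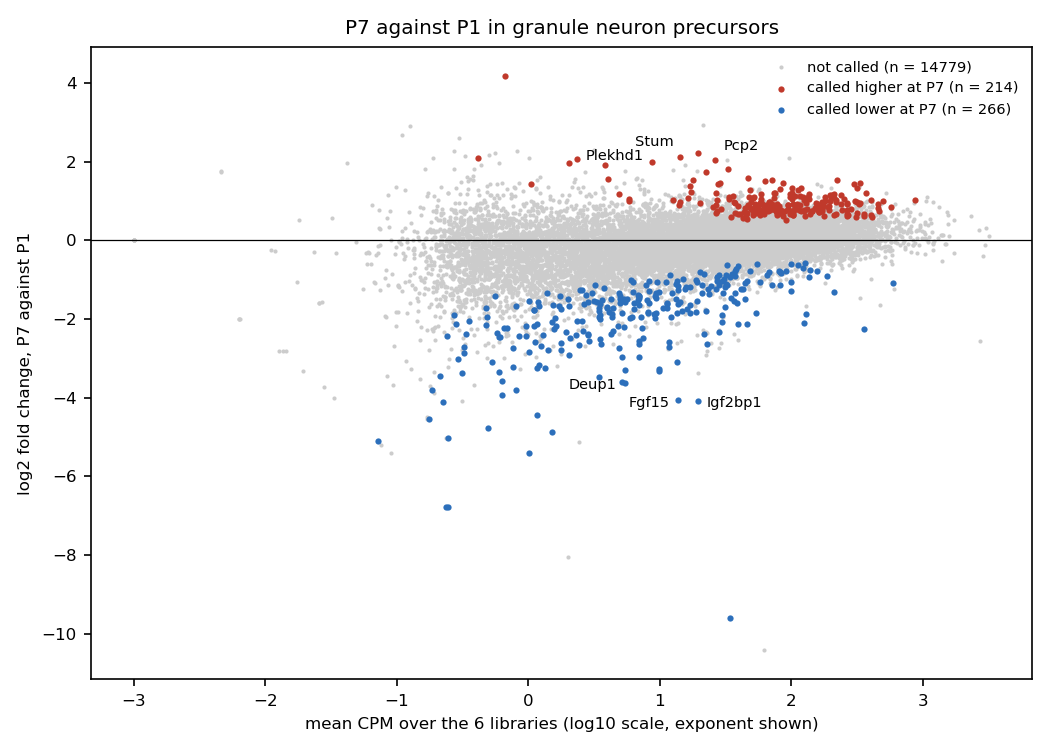
Each point is 1 of the 15259 genes tested; the horizontal axis is the mean CPM over the 6 libraries (log10) and the vertical axis the log2 fold change of P7 against P1, with 214 genes called higher in red, 266 called lower in blue and the rest grey. The 3 largest named changes in each direction are labelled, and the falls reach further from 0 than the rises.

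The calls depended on single libraries. Without P1 replicate 3, 484 genes (3.12%) were called higher and 404 (2.61%) lower of 15508 tested, and 184 of the 214 higher and 248 of the 266 lower genes were kept. That library was the highest of the P1 libraries in 146 of the 214 higher genes and the lowest in 175 of the 266 lower ones, so that it lay nearest to P7 in most of both. Without P1 replicate 1 the counts were 58 higher and 236 lower, and without P1 replicate 2 they were 1 and 8. Without P7 replicates 1, 2 and 3 they were 57 and 49, 6 and 15, and 62 and 94. None of the 480 called genes changed sign in any of these 6 fits. Of the 60 called genes named by the rule for this text, 7 were still called without P1 replicate 2 and 8 without P7 replicate 2, against 59 without P1 replicate 3. Called genes chosen by the naming rule are therefore given with the number of these 6 fits in which they were called. With the P1 and P7 libraries alone in the fit, 101 genes were called higher and 102 lower, and 35 of the 60 were still called.

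**Figure D2:**
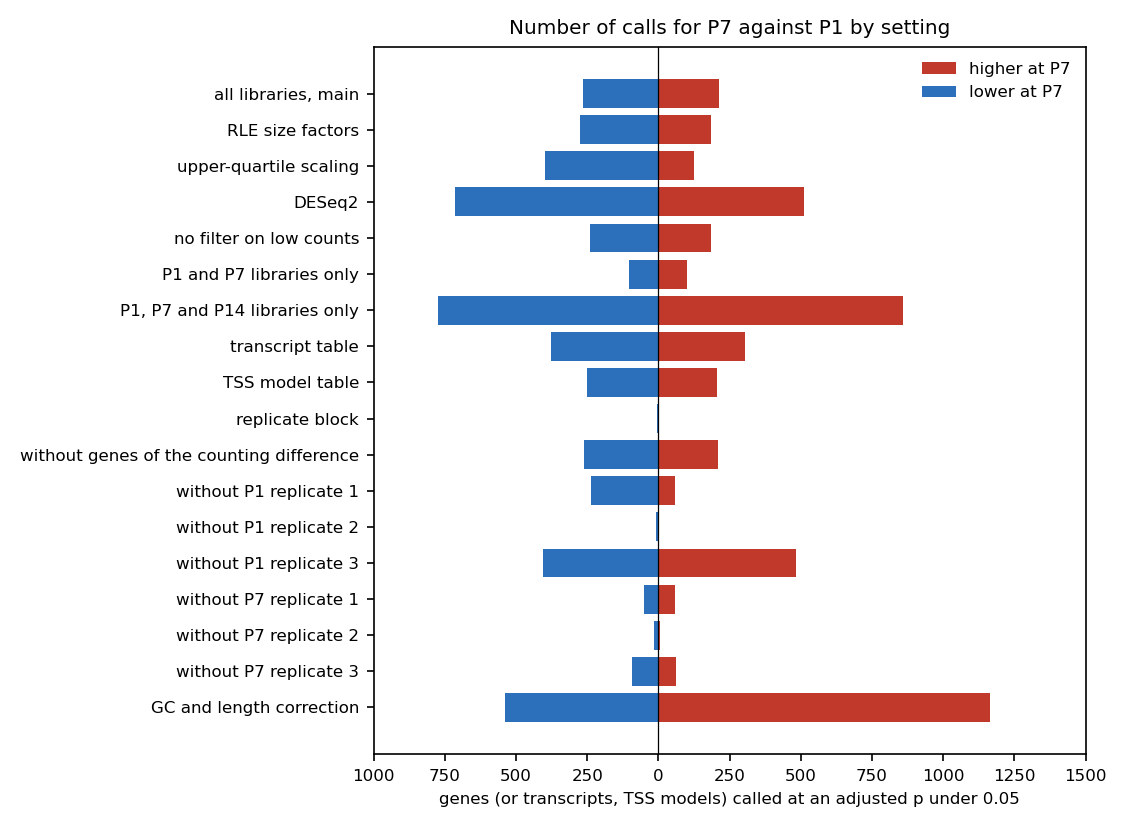
Bars give the number of genes (or transcripts or transcription start site models) called higher (red, to the right) and lower (blue, to the left) at P7 under each setting, on an axis of counts that starts at 0. Leaving out P1 replicate 3 raises both counts to 484 and 404, while leaving out P1 replicate 2 or P7 replicate 2 leaves at most 6 higher and 15 lower.

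Base composition also moved with the comparison. The median GC content of the representative transcripts was 55.6% for genes called higher, 49.6% for genes called lower and 50.6% for all. The median log2 fold change was -0.13 in the decile of genes with the lowest GC content and 0.20 in the decile with the highest. The level of the GC-rich decile minus that of the GC-poor decile, on the log2 scale, was -1.01, -0.87 and -0.76 in P1 replicates 1 to 3 and -0.48, -1.12 and 0.0057 in P7 replicates 1 to 3, so the groups overlapped. With a correction of each library for GC content and length, added after seeing the data, 195 of the 214 higher and 242 of the 266 lower genes were still called, but the balance turned. Of 14483 genes in that fit, the genes higher at P7 than at P1 then numbered 1165 and the genes lower at P7 than at P1 538. The part of base composition in the calls was otherwise not tested.

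Among the genes that fell were 4 oncofetal genes, which are active in embryonic tissues and tumours and mostly silent in adults. Igf2bp1, Igf2bp2 and Igf2bp3 encode RNA-binding proteins that stabilise target mRNAs, Lin28b blocks the maturation of let-7 microRNAs, and Hmga2 is an architectural chromatin protein. As background, mRNAs of Lin28b, Hmga2 and the Igf2bp genes are known targets of let-7, whose seed pairs with sites in their 3′ untranslated regions. The let-7 sequences and sites are shown because genes that carry several sites are among those that fell. In the RefSeq table (GRCm38.p6), 11 of 1679 mature mouse microRNAs share the let-7 seed, bases 2 to 8 in capitals.
mmu-let-7a-5p: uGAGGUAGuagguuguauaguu
mmu-let-7b-5p: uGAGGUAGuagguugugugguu
mmu-let-7c-5p: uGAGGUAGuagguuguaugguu
mmu-miR-98-5p: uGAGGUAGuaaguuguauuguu
The first complementary site (CTACCTC, in capitals) in the 3′ untranslated region of each gene's representative transcript, on the transcript's strand, is as follows, with 15 bases before it and 1 after.
Igf2bp1: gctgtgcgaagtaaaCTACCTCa
Hmga2: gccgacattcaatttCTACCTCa
Lin28b: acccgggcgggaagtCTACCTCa
Igf2bp2: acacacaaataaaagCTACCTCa
Igf2bp3: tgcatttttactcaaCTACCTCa
All 5 genes lie on the minus strand, and the sites in GRCm38 are chr11:95961778-95961800, chr10:120364224-120364246, chr10:45381022-45381044, chr16:22059473-22059495 and chr6:49086787-49086809, in the same order. The site was found 4 times each in Igf2bp1, Hmga2 and Lin28b and once each in Igf2bp2 and Igf2bp3.

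Igf2bp1 (ENSMUSG00000013415, chr11:95818477-95867254 in mm9) stood at 54.8, 40.4 and 15.6 CPM at P1 and at 1.52, 1.35 and 3.74 CPM at P7. All P7 libraries lay below all P1 libraries, and the mean was 16.8-fold lower. Its log2 fold change was -4.08 (SE 0.604, edgeR adjusted p = 0.00901), and it was called in 5 of the 6 fits that each leave out 1 library. Hmga2 went from 7.68, 7.91 and 3.01 CPM to 0.731, 0.993 and 1.27 CPM, a log2 fold change of -2.64 (SE 0.364, adjusted p = 0.00722). It was called in all 6 fits, and P1 replicate 3 was the lowest P1 library here as for Igf2bp1. Lin28b fell from 13, 8.72 and 6.67 CPM to 1.72, 3.42 and 2.04 CPM (log2 fold change -1.97, adjusted p = 0.0155, 3 of the 6 fits). Igf2bp2 fell from 20.8, 21.2 and 9.01 CPM to 4.91, 5.16 and 6.7 CPM (log2 fold change -1.61, adjusted p = 0.014, 3 of the 6 fits). Neither gene's groups overlapped.

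Igf2bp3 was at 43.8, 33.8 and 17.1 CPM at P1 and 12, 17.2 and 20 CPM at P7. Its groups overlapped through P1 replicate 3, and its adjusted p was 0.0954, or 0.0155 with a log2 fold change of -1.24 without that library. Hmga1, the relative of Hmga2 with broader expression, had a log2 fold change of 0.05 (adjusted p = 0.924). Of the 8 genes on the oncofetal list 6 passed the filter on low counts. Of these 6, 4 were called lower and 0 higher, against 1.74% and 1.4% of all genes, and their median log2 fold change was -1.79. Without P1 replicate 3, 5 were lower, against 2.61% of all genes, and the median was -2.04. Over all genes tested the median was -0.01. At E15.5 Igf2bp1 stood at 62.8 to 109 CPM and at P14 at 0.401 to 0.573 CPM, so P7 lay between P1 and P14.

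The let-7 site was present in 9.59% of the 13991 tested genes with a 3′ untranslated region, in 10.7% of those called lower (26 of 243) and in 3.98% of those called higher (8 of 201). Only 23 genes carried 3 or more sites, and 3 of these, or 13%, were called lower: Igf2bp1, Hmga2 and Lin28b. The share called lower was 1.72% of genes with no site, 1.52% of the 1185 with 1 site and 3.73% of the 134 with 2 sites. Genes with 3 or more sites had a median 3′ untranslated region of 4466 bases against 999 over all genes. The median log2 fold change of the 23 genes was -0.12, and of the 12649 genes without a site it was -0.01. The search was chosen after seeing the falls, and let-7 itself was not measured in these libraries. A match is a description of the sequence.

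Of 17 Fgf signalling genes tested 3 fell and 0 rose, against 1.74% and 1.4% of all genes, and the median log2 fold change was -0.33. Fgf15, an Fgf ligand of the embryonic mid- and hindbrain, stood at 30.6, 33.6 and 13.6 CPM at P1 and at 1.87, 1.49 and 1.23 CPM at P7 (chr7:152082437-152086858 in mm9). It was 16.9-fold lower in the mean, with a log2 fold change of -4.07 (SE 0.621, adjusted p = 0.00901), and it was called in 4 of the 6 fits. Fgf8, the ligand of the midbrain-hindbrain organiser, went from 5.32, 4.46 and 1.09 CPM to 0.351, 0.469 and 0.616 CPM (log2 fold change -2.92, adjusted p = 0.0186, 3 of the 6 fits). Etv5, an Ets factor induced by Fgf signals, went from 89.8, 77.6 and 68.7 CPM to 49.8, 30.9 and 32.9 CPM (log2 fold change -1.05, adjusted p = 0.0337, 2 of the 6 fits). The ligand genes Fgf9, Fgf2 and Fgf14 were not called, at -0.03, -0.33 and -0.86. Nor were Fgf readouts on the list such as the following: Etv4 had a log2 fold change of 0.08, Dusp6 of -0.24 and Spry4 of -0.71. The receptors Fgfr1, Fgfr2, Fgfr3 and Fgfr4 had values of -0.04, -0.28, -0.81 and -0.75, none of them called.

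Of 30 axon guidance genes 7 fell and 0 rose, against 1.74% and 1.4% of all genes, and the median log2 fold change was -0.36. In the fit without P1 replicate 3, 7 were lower and 1 was higher, the netrin receptor gene Unc5b (adjusted p = 0.0239). The falls included a ligand and a receptor of the Slit and Robo system, which repels axons and migrating cells. Slit1 went from 9.74, 13.3 and 4.56 CPM to 1.64, 0.8 and 1.04 CPM (log2 fold change -2.98, SE 0.45, adjusted p = 0.00901, 4 of the 6 fits). Robo3, which lets commissural axons cross the midline, went from 11.6, 14.5 and 2.79 CPM to 0.614, 0.69 and 1.08 CPM. Its log2 fold change was -3.61 (adjusted p = 0.0327), and it was called only in the fit without P1 replicate 3 among the 6. Its level at E15.5, in cells of the Math1-GFP genotype, was 189 to 338 CPM. Slit2, Slit3, Robo1 and Robo2 were not called, with log2 fold changes of -0.74, -1.15, -0.09 and -0.20.

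The other guidance genes called belong to the semaphorin and ephrin systems. Sema3a, a secreted repellent, fell from 48.8, 49.1 and 33.7 CPM to 20.4, 19.6 and 17.3 CPM with little spread in either group (log2 fold change -1.20, SE 0.18, adjusted p = 0.00901, 5 of the 6 fits). Its receptor subunit Nrp1 went from 40.4, 72.3 and 63.8 CPM to 28.7, 22.2 and 23.8 CPM (log2 fold change -1.24, adjusted p = 0.0336, 2 of the 6 fits). At P14 Nrp1 was back at 54.5 to 65.7 CPM. The ephrin receptors Epha5 and Epha4 had log2 fold changes of -1.83 (adjusted p = 0.0279) and -1.04 (adjusted p = 0.0341), called in 2 and 3 of the 6 fits. Sema3f was the seventh, at -1.84 (adjusted p = 0.0375).

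The largest falls also included Deup1 and Gmnc, which act in multiciliated cells, and Lmx1a. Deup1, which builds the deuterosome from which multiciliated cells make their centrioles, stood at 11.5, 14.2 and 4.63 CPM at P1 and at 0.585, 0.828 and 1.04 CPM at P7. It had the lowest adjusted p of the 12 largest falls together with Vwa5b1, at 0.00539, with a log2 fold change of -3.63 (SE 0.471), and was called in all 6 fits. At E15.5 it was at 0.393 to 0.525 CPM and at P14 at 0.573 to 0.784 CPM, so its high level was seen at P1 alone among these ages. Gmnc, the geminin relative that starts the multiciliated cell programme, went from 6.01, 22.4 and 8.52 CPM to 0.818, 1.68 and 2.2 CPM (log2 fold change -2.98, adjusted p = 0.0115, 4 of the 6 fits). Lmx1a, a LIM homeodomain factor of the roof plate, rhombic lip and unipolar brush cells, went from 8.24, 14.2 and 6.97 CPM to 0.321, 0.966 and 1.77 CPM (log2 fold change -3.29, adjusted p = 0.0115, 4 of the 6 fits). Both were higher again at P14, at 6.42 to 7.25 and 4.11 to 4.91 CPM.

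The defining markers of choroid plexus varied between libraries in the same direction. All 8 of its markers had a negative log2 fold change, with a median of -2.30, and 0 were called by edgeR. Of the 8 markers 5 had an unadjusted edgeR p under 0.05, against 3055 of 15259 genes, and 1 was called by DESeq2. Their summed level was 300, 10369 and 3956 CPM at P1 and 15.02, 477 and 1992 CPM at P7, and none was at 0 in either group. Ttr, the choroid plexus transport protein, made up most of this sum, at 285, 10066 and 3755 CPM and at 8.48, 454 and 1910 CPM. Both the sum and Ttr overlapped between the ages. Within each age, Abca4, a retinoid transporter, followed the same order of libraries. It was at 18.9, 63.3 and 35.7 CPM at P1 and 2.48, 3.78 and 12.8 CPM at P7 (log2 fold change -2.64, adjusted p = 0.0226, 3 of the 6 fits). Gmnc followed that order within each age as well. Unlike the sum and Ttr, neither gene overlapped between the ages. Deup1 and Lmx1a did not at P1, where replicate 3 was their lowest library. The part of choroid plexus cells in these falls was not tested. In bulk RNA, fewer cells of a type and less RNA per cell cannot be told apart.

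The other large falls were in genes of mixed function. Vwa5b1, a von Willebrand factor A domain protein, went from 21.7, 23.1 and 9.34 CPM to 1.14, 1.99 and 2.5 CPM (log2 fold change -3.27, SE 0.405) and was called in all 6 fits. Cdhr1, a cadherin-related protein known from photoreceptors, went from 34.3, 24.1 and 14.2 CPM to 1.29, 2.51 and 4.78 CPM (log2 fold change -3.10, adjusted p = 0.00901, 5 of the 6 fits). The endocytic receptor Lrp2, also called megalin, went from 11.7, 18.5 and 5.84 CPM to 2.1, 1.41 and 2.23 CPM (log2 fold change -2.65, adjusted p = 0.0113, 4 of the 6 fits). The secreted protease Mmp9 went from 21.6, 28.9 and 10.7 CPM to 2.83, 2.46 and 3.97 CPM (log2 fold change -2.73, adjusted p = 0.0341) and was called only without P1 replicate 3. In each of these the groups did not overlap and P1 replicate 3 lay nearest to P7.

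**Figure D3:**
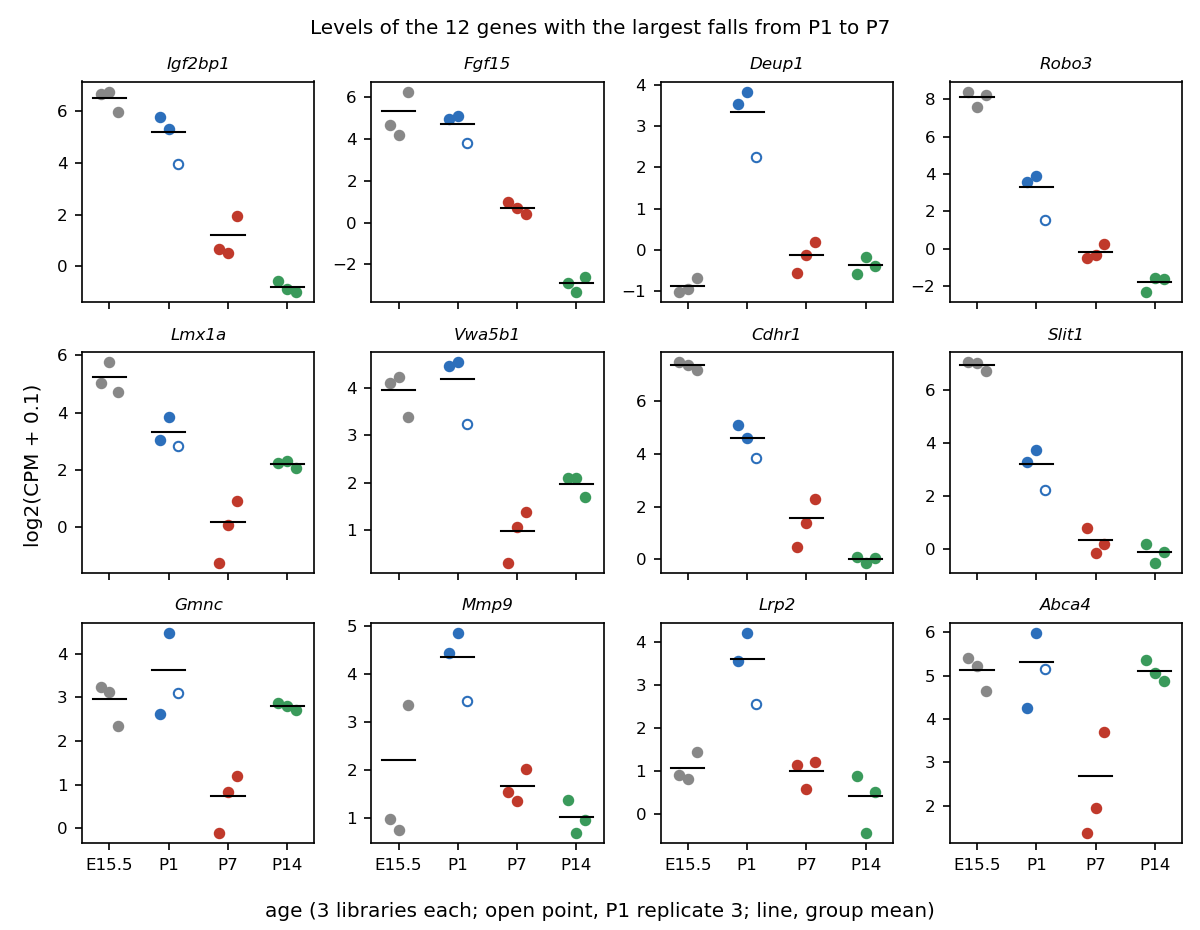
Levels of the 12 genes with the largest falls, as log2(CPM + 0.1), in the 3 libraries of each age, with the group mean as a line and P1 replicate 3 as an open point. P1 lies above P7 without overlap in every panel, and Igf2bp1, Fgf15, Robo3, Cdhr1 and Slit1 have no P14 library near P1, whereas Gmnc, Lmx1a, Abca4 and Vwa5b1 are higher at P14 than at P7.

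The rises were smaller than the falls, with log2 fold changes of 1.44 to 2.12 in the 12 largest that met the naming rule. Rnd2 rose from 109, 101 and 133 CPM to 292, 415 and 291 CPM (log2 fold change 1.54, SE 0.294, adjusted p = 0.0184, 4 of the 6 fits). At E15.5 it had been at 246 to 427 CPM, so its P1 level was lower than at either neighbouring age. C1ql1, a secreted C1q-like protein that acts at synapses, rose from 18.4, 17.5 and 34.8 CPM to 64.9, 77.3 and 70.4 CPM (log2 fold change 1.59, adjusted p = 0.0218, 1 of the 6 fits). Lynx1, a membrane-anchored modulator of nicotinic acetylcholine receptors, rose from 18.9, 28.1 and 51.4 CPM to 92.1, 121 and 68.4 CPM (log2 fold change 1.52, adjusted p = 0.0251, 2 of the 6 fits). In all 3 genes P1 replicate 3 was the highest P1 library.

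Drap1, a subunit of the NC2 transcriptional corepressor, rose from 42.9, 42.6 and 53.4 CPM to 124, 153 and 101 CPM (log2 fold change 1.45, adjusted p = 0.0115, 4 of the 6 fits). The uncharacterised 9130221H12Rik rose from 35.7, 34.4 and 39.6 CPM to 78.7, 135 and 103 CPM, and with an adjusted p of 0.00539 it was the one rise among the 12 called in all 6 fits. Both were above their P1 level at E15.5, at 220 to 407 and 120 to 130 CPM. Myh7b, a sarcomeric-type myosin heavy chain, rose from 14.3, 11.3 and 18.1 CPM to 49.4, 41.5 and 62.8 CPM (log2 fold change 1.81, adjusted p = 0.0218, 1 of the 6 fits). Reep6, which shapes endoplasmic reticulum membranes, Scube1, a secreted protein with EGF-like repeats, and Tmem28 rose by log2 fold changes of 1.74, 1.53 and 1.44 and were called in 2, 2 and 4 of the 6 fits.

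Stum, Pcp2 and Plekhd1 had the largest rises and a wide spread at P7. Stum went from 4.33, 3.84 and 7.76 CPM to 31.8, 22.4 and 15.3 CPM (log2 fold change 2.12, SE 0.367, adjusted p = 0.0134, 4 of the 6 fits). Plekhd1 went from 1.89, 4.11 and 4.48 CPM to 25.4, 6.54 and 9.94 CPM (log2 fold change 2.00, adjusted p = 0.0401, 1 of the 6 fits). Pcp2, a defining gene of Purkinje cells, went from 6.48, 11.7 and 13 CPM to 66.8, 22.3 and 38.3 CPM (log2 fold change 2.03, adjusted p = 0.0467, 1 of the 6 fits). P7 replicate 1 was the highest library for all 3. The summed level of 11 Purkinje markers was also highest there, at 1177 CPM, against 447 and 628 CPM in the other P7 libraries and 328, 491 and 521 CPM at P1. Of these markers 2 were called higher (Pcp2 and Pcp4) and 1 lower (Foxp2), against 1.4% and 1.74% of all genes. A positive value was seen in 10 of 11, with a median of 0.97. Pcp4 and Foxp2 were each called in 1 of the 6 fits. In the fit without P1 replicate 3, 4 markers were higher, Ppp1r17 and Rgs8 being the other 2, and Foxp2 was lower. The shares over all genes in that fit were 3.12% and 2.61%. The part of Purkinje cells in these rises was not tested.

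**Figure D4:**
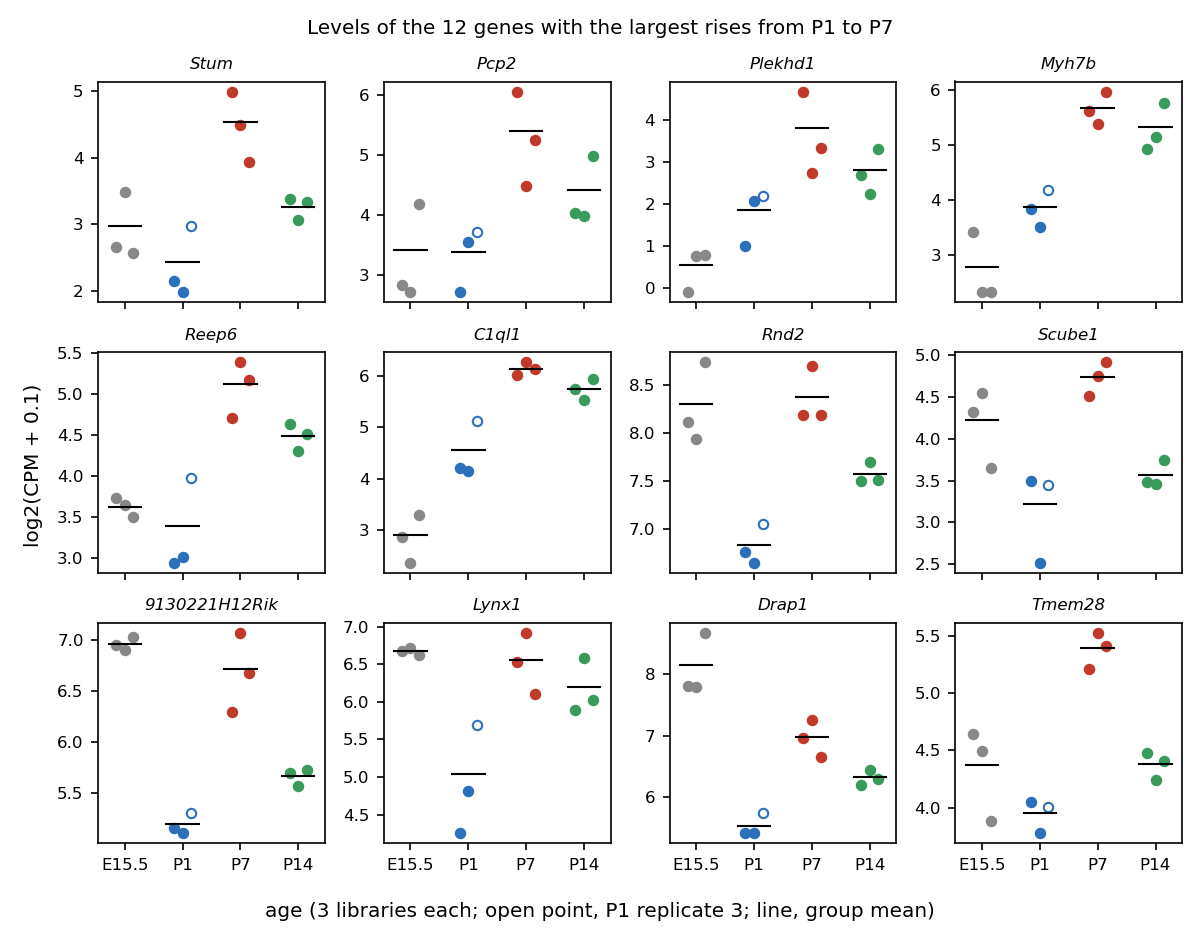
Levels of the 12 genes with the largest rises, as log2(CPM + 0.1), in the 3 libraries of each age, with the group mean as a line and P1 replicate 3 as an open point. P7 lies above P1 without overlap in every panel, and Rnd2, Drap1, 9130221H12Rik and Lynx1 are also high at E15.5, so P1 is their low point among the ages before P14.

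Among 32 Polycomb and H3K27 demethylase genes 1 rose and 0 fell, a share near that over all genes (1.4% higher). The median log2 fold change was 0.35, with 24 of 32 above 0. Unadjusted edgeR p-values under 0.05 were seen in 9 higher and 1 lower, against 3055 of 15259 genes in both directions. DESeq2 called 2 higher and 1 lower. After the GC and length correction 8 were called higher, in a fit that also raised the higher calls over all genes. Leaving out P1 replicate 3 gave 2 higher, Phc1 and Rybp, against 3.12% of all genes. Phc1, a subunit of the canonical PRC1 complex, rose from 127, 117 and 125 CPM to 160, 207 and 236 CPM (log2 fold change 0.71, SE 0.158, adjusted p = 0.0291, 2 of the 6 fits). Ezh2, the H3K27 methyltransferase the study is about, was at 189, 171 and 127 CPM at P1 and 159, 254 and 204 CPM at P7. Its groups overlapped, and its log2 fold change was 0.34 (SE 0.184, adjusted p = 0.325), or 0.19 without P1 replicate 3. Its partners Eed and Suz12 had values of 0.07 and -0.11, and its relative Ezh1 0.33, none called. A p above the threshold does not show that their levels were equal.

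Among 16 subunits of the BAF remodelling complex, whose makeup changes between progenitors and neurons, 1 rose and 0 fell. The shares over all genes were 1.4% and 1.74%. All 16 had a positive value, with a median of 0.35, but under upper-quartile scaling 14 were positive. Unadjusted edgeR p-values under 0.05 were seen in 7, all higher, against 3055 of 15259 genes in both directions. DESeq2 called 4 higher. After the GC and length correction 5 were called higher, in a fit that also raised the higher calls over all genes. Without P1 replicate 3 edgeR called 2 higher, against 3.12% of all genes. Smarcc2 rose from 319, 313 and 369 CPM to 623, 709 and 678 CPM (log2 fold change 1.01, SE 0.179, adjusted p = 0.014, 4 of the 6 fits). Actl6b, the neuronal subunit that takes the place of Actl6a, was at 37.5, 29.1 and 56.8 CPM at P1 and 82.4, 92.9 and 72.4 CPM at P7 and just missed the threshold (adjusted p = 0.0501, or 0.0137 without P1 replicate 3), and Actl6a had a log2 fold change of 0.09.

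None of 26 replication genes and none of 24 genes of G2 and mitosis was called by edgeR. Unadjusted edgeR p-values under 0.05 were seen in 2 of the first (0 higher, 2 lower) and 2 of the second (1 higher, 1 lower), against 3055 of 15259 genes. DESeq2 called 1 lower in each list. The medians were -0.10 and 0.04, and the second was -0.06 under upper-quartile scaling and -0.15 without P1 replicate 3. Without that library 1 gene in each list was called lower, against 2.61% of all genes. Mki67, the proliferation antigen, stood at 1115, 1011 and 771 CPM at P1 and at 1314, 2149.9 and 1709 CPM at P7, without overlap, but its adjusted p was 0.154, or 0.0252 after the GC and length correction. Top2a had a log2 fold change of -0.07. The summed level of the mitotic list was 5792, 5237 and 3731 CPM at P1 and 4766, 7007 and 5682 CPM at P7, lowest in P1 replicate 3.

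Of 17 Sonic hedgehog genes edgeR called 1 higher and 0 lower, against 1.4% and 1.74% of all genes. DESeq2 called 2 higher and 1 lower. The edgeR call was the secreted Frizzled-related protein Sfrp1, which rose from 163, 189 and 261 CPM to 366, 431 and 426 CPM (log2 fold change 0.99, SE 0.202, adjusted p = 0.0214, 2 of the 6 fits). The targets Gli1 and Ptch1 had log2 fold changes of 0.06 and 0.04, with P1 and P7 libraries overlapping. Mycn had -0.19, Ccnd2 -0.06 and Ccnd1 -0.54, and for Ccnd1 the P1 libraries alone ranged from 203 to 496 CPM. The co-receptor Cdon had the lowest value on the list, at -1.09 (adjusted p = 0.0671).

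Granule lineage factors gave 1 call, higher at P7, where 1.4% of all genes were called higher. Among 26 of them Neurod6, a bHLH factor of differentiating neurons, was called, rising from 42.5, 27.9 and 29.4 CPM to 60.1, 89.7 and 45.2 CPM (log2 fold change 0.97, adjusted p = 0.0378, 2 of the 6 fits). Without P1 replicate 3 its adjusted p was 0.0681. Neurod1, which drives granule cell differentiation, stood at 575, 536 and 953 CPM at P1 and at 1369, 1868 and 1146 CPM at P7. Its log2 fold change was 1.09 (SE 0.292) with an adjusted p of 0.0546, or 1.40 and 0.0195 without P1 replicate 3. Atoh1 had a log2 fold change of -0.64 (adjusted p = 0.215) and -0.95 (adjusted p = 0.0204) without that library. In that fit 1 lineage factor was higher and 2 were lower, against 3.12% and 2.61% of all genes.

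Genes of newborn and mature granule neurons turned on P1 replicate 3. Of 19 newborn neuron genes 16 had a positive value and 0 were called higher with all libraries, whereas 4 were called higher without it. Over all genes the share called higher also rose, from 1.4% to 3.12%. DESeq2 called 1 of the 19 higher with all libraries. An unadjusted edgeR p under 0.05 was seen in 4 of the 16, against 3055 of 15259 genes in both directions. Rbfox3, the NeuN antigen, was at 110, 105 and 343 CPM at P1 and 406, 471 and 551 CPM at P7. Its log2 fold change was 1.35 (adjusted p = 0.054) with all libraries and 2.14 (adjusted p = 6.59e-04) without P1 replicate 3. The adhesion molecule Cntn2, also known as TAG-1, was at 522, 491 and 1416 CPM and at 1791, 1055 and 1913 CPM (log2 fold change 0.97, adjusted p = 0.305). The one called member was Cxcr4, the chemokine receptor that holds precursors in the external layer, which fell from 169, 164 and 89.6 CPM to 46.4, 68 and 59.6 CPM (log2 fold change -1.28, SE 0.246, adjusted p = 0.0186, 2 of the 6 fits).

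Mature granule neuron genes changed sign as a group with that library. The median log2 fold change of 26 genes was -0.40 with it and 0.26 without it, and the calls were 0 with it and 3 higher without it. Over all genes 1.4% were called higher with it and 3.12% without it. With all libraries 1 higher and 7 lower genes of the list had an unadjusted edgeR p under 0.05, against 3055 of 15259 genes in both directions. DESeq2 called 1 gene of the list in each direction. Gabra6, the GABA-A receptor subunit of mature granule cells, was at 1.12, 12.5 and 102 CPM at P1 and at 10.3, 9.49 and 2.54 CPM at P7, against 161 to 202 CPM at P14. Cbln3, a granule cell cerebellin, was at 5.45, 21.6 and 159 CPM and at 15.1, 11.6 and 9.01 CPM. The summed level of the list was 1251, 1128 and 2969 CPM at P1, 1657, 1425 and 1602 CPM at P7, and 3570 to 4008 CPM at P14. Grin2c, the NMDA receptor subunit of mature granule cells, was lower in every P7 library (3.75 to 6.4 CPM) than in every P1 library (23.3 to 63.2 CPM). Its adjusted p was 0.131, and 0.217 without P1 replicate 3. Grin2b, the juvenile subunit, was at 23.5 to 70.7 CPM at P1 and 36.3 to 145 CPM at P7.

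Of 15 Nfi and thyroid hormone genes 1 rose and 0 fell, against 1.4% and 1.74% of all genes. The thyroid hormone receptor gene Thra rose from 221, 183 and 279 CPM to 396, 457 and 429 CPM (log2 fold change 0.91, SE 0.202, adjusted p = 0.0291, 1 of the 6 fits). After the GC and length correction its adjusted p was 0.0553. With P1 replicate 3 left out, 3 genes of the list were higher (Thra, Klf9 and Hr), against 3.12% of all genes, and the median turned from -0.10 to 0.23. The other receptor gene, Thrb, was at 17.3 to 18.8 CPM at P1 and 6.59 to 10.6 CPM at P7 and was not called (adjusted p = 0.051). Nfix, a nuclear factor I member of differentiating granule neurons, was at 440 to 859 CPM at P1 and 772 to 1648 CPM at P7 (adjusted p = 0.188), and Nfia and Nfib had log2 fold changes of -0.23 and 0.10. Among 15 imprinted growth genes 1 fell and 0 rose, against 1.74% and 1.4% of all genes. Grb10, an adaptor that restrains insulin and Igf signalling, fell from 234, 253 and 122 CPM to 44.4, 48.3 and 74.4 CPM (log2 fold change -1.87, adjusted p = 0.0319). It was called only without P1 replicate 3 among the 6 fits, and there 3 imprinted genes were lower, against 2.61% of all genes. The growth factor gene Igf2 had a log2 fold change of -0.73 (adjusted p = 0.157).

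Immediate early genes, receptor subunits and cholesterol synthesis genes gave no edgeR call among 18, 21 and 18 members. Unadjusted p-values under 0.05 were seen in 1, 1 and 2 of them, all higher, and DESeq2 called 0, 0 and 1. Without P1 replicate 3 the edgeR calls were 0, 1 and 1, all higher, against 3.12% of all genes. All 18 immediate early genes, which respond to activity and to cell handling, had a positive value, with a median of 0.28, but 17 were positive under upper-quartile scaling and 17 under RLE scaling. Their summed level was 1928, 2682 and 3275 CPM at P1 and 4151, 2658 and 2749 CPM at P7, so the groups overlapped.

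Markers of blood vessels and meninges had lower summed levels at P7. All 10 endothelial markers had a negative value (median -0.63), and 2 were called lower: the transporters Slco1a4 and Slc2a1, each in 2 of the 6 fits. Over all genes 1.74% were called lower. Slc2a1, the glucose transporter of the blood-brain barrier, fell from 75.7, 107 and 113 CPM to 55.7, 43.5 and 35.7 CPM (adjusted p = 0.0296). The summed endothelial level was 537, 757 and 826 CPM at P1 and 460, 447 and 384 CPM at P7, without overlap. All 10 markers of pericytes, fibroblasts and meninges were also negative (median -0.79), with 0 edgeR calls and 3 DESeq2 calls. Without P1 replicate 3 edgeR called 2 lower, against 2.61% of all genes. With all libraries 5 had an unadjusted edgeR p under 0.05, against 3055 of 15259 genes. The sum of these markers was 850, 1317 and 1012 CPM at P1 and 730, 637 and 469 CPM at P7, without overlap. Cdh5, which defines endothelium, was present in every library at 44.3 to 82.7 CPM.

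Among 12 astroglial markers 1 was called, and it was lower, where 1.74% of all genes were. This was the gap junction gene Gja1, which fell from 261, 336 and 314 CPM to 158, 127 and 81.4 CPM (log2 fold change -1.31, SE 0.234, adjusted p = 0.014, 4 of the 6 fits), while Gfap had a log2 fold change of 1.39. Without P1 replicate 3, 3 markers were called higher, Gfap (adjusted p = 0.0128), Aqp4 (0.021) and S100b (0.0235), against 3.12% of all genes. Gja1 was still lower in that fit, and the median turned from -0.15 to 0.10. The summed astroglial level was 3331, 3758 and 5050 CPM at P1 and 5041, 3526 and 2572 CPM at P7, overlapping. The 12 oligodendrocyte markers gave 0 edgeR and 0 DESeq2 calls and 1 unadjusted p under 0.05. Their sum was 636, 1065 and 4124 CPM at P1, highest in replicate 3, and 2002, 1291 and 1017 CPM at P7, and the median moved from -0.59 to 0.91 without that library. In that fit 2 of the oligodendrocyte markers were called higher, against 3.12% of all genes. The 12 microglial markers gave 0 calls with either tool and 0 unadjusted p-values under 0.05. Of 10 GABAergic interneuron markers 7 had a positive value, with a median of 0.35. Sst was called lower, at -2.31 (1 of the 6 fits), and 0 were called higher, against 1.74% and 1.4% of all genes. Without P1 replicate 3 Lhx1 was called higher (log2 fold change 0.87, edgeR adjusted p = 0.0359) and Sst lower, against 3.12% and 2.61% of all genes. Of 8 markers of unipolar brush cells and cerebellar nuclear neurons Lmx1a was called lower. Of 6 muscle genes tested Myh8 was lower (4 of the 6 fits), and again 1.74% of all genes were. Of 7 erythroid genes 2 were tested, neither of them called. The part of these cells in the gene changes above was not tested.

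**Figure D5:**
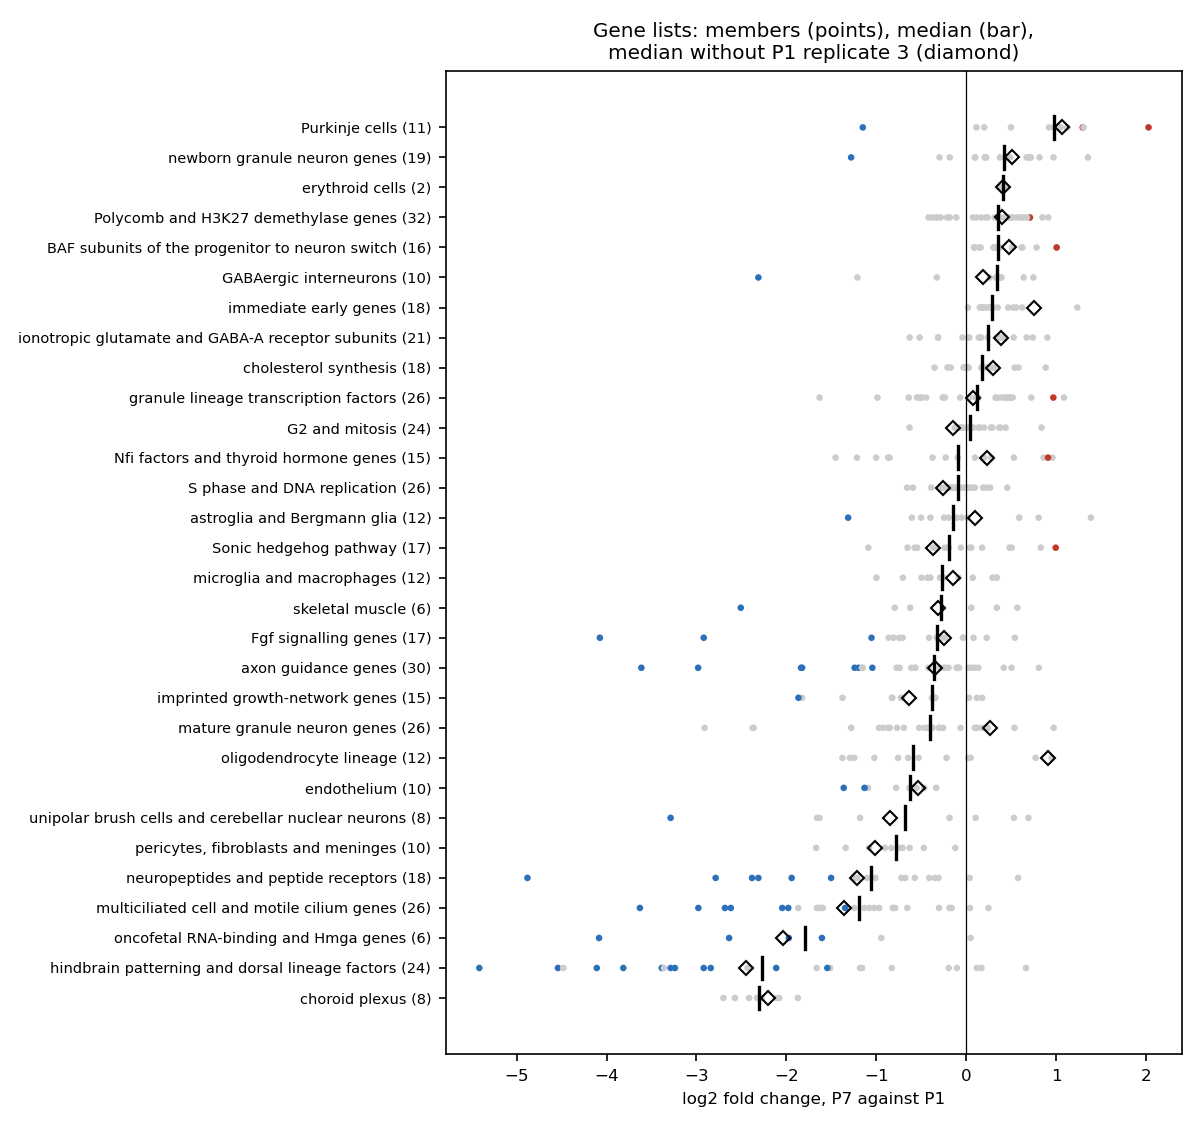
Each row is a gene list with the number of members tested, and each point is a member's log2 fold change of P7 against P1, red if called higher, blue if called lower and grey if not called. Bars mark the list's median with all libraries and diamonds the median without P1 replicate 3, which moves from -0.40 to 0.26 for mature granule neuron genes and from -0.59 to 0.91 for the oligodendrocyte lineage.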

How the data were processed

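Per the submitters' processing notes, reads were processed with Trimmomatic, TopHat, StringTie and HTSeq on the mouse build mm9. Versions, the strand setting and the annotation release are not given in the sources used here. The authors deposited raw read counts per library, with no normalization, in 3 tables: 21889 Ensembl genes in HTSeq format, 24735 transcription start site models, and 28246 transcripts counted by overlap. Of the records in the gene files of the 6 libraries, 45.4% to 55.4% lay in genes, and the summary lines that name no gene (17.1% to 29.2% in no feature, 24.7% to 29.1% with several alignments, 0.606% to 0.710% ambiguous) were left out.

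Counts were tested with edgeR 4.0.16 in R 4.3.3: filterByExpr (minimum count 10, total 15), TMM, 1 mean per group over all 15 libraries (10 residual degrees of freedom), the quasi-likelihood test of P7 against P1, and Benjamini-Hochberg adjustment over 15259 genes. A fold is a ratio of mean CPM, and a log2 fold change is the fitted one. Symbols matched 20358 genes by Ensembl ID. A gene's representative transcript has the highest mean count over the 6 libraries, and 25114 transcripts matched a gene. Positions are those of the transcript table in mm9, 1-based. The 3′ untranslated regions and GC content came from GENCODE vM21 (GRCm38), and microRNAs from RefSeq. The edgeR step was tested on simulated data.

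Named genes were the 12 largest rises and falls among called genes with a symbol, a mean of at least 5 CPM, no overlap of libraries and the same call in the transcript table (162 higher and 134 lower genes qualified), up to 6 called members of each list, and a fixed selection. Other list members are given with their values as examples chosen after those were seen. Members and lists were chosen with earlier results of these data known, so lists got no test. Alternatives were RLE and upper-quartile scaling, DESeq2 1.42.0, no low-count filter, other libraries in the fit, the other tables, a replicate block, leaving out each library and, added later, a GC and length correction with mgcv 1.9.3. Between the gene and transcript tables, 27 of 12608 genes compared had a ratio of counts that separated all P7 from all P1 libraries by over 0.5 (log2). Of these, 6 were called (Fndc1, Rmi1, Hist1h2ab, Snx9, Rps27a-ps2 and Atg7) and are not otherwise reported, since counting and age cannot be told apart there. Pairs of replicates differed by far more than sampling noise, so none was counted as a duplicate.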

Additional observations from a re-analysis of the deposited data

How the results depend on the processing

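The 60 called genes chosen by the naming rule kept their direction under every alternative that gave them a value, except Pcp4, which was at -0.38 (adjusted p = 0.73) in the transcription start site table. The counts of calls moved. The genes higher at P7 than at P1, 214, and the genes lower at P7 than at P1, 266, became 511 and 713 with DESeq2, 101 and 102 with the P1 and P7 libraries alone, 860 and 775 with the 3 postnatal ages, and 1165 and 538 with the GC and length correction. Upper-quartile scaling gave 125 higher and 397 lower. The median log2 fold change of all genes was -0.116 there, against -0.014 in the main fit. Upper-quartile scaling and the GC correction moved the share of higher calls by over 10 percentage points. So did the replicate block and the fits without P1 replicate 1, P1 replicate 2 or P7 replicate 2. Leaving out 1 library gave 1 to 484 higher and 8 to 404 lower. The cause was not tested, other than that fewer libraries enter some fits. Deviations of same-numbered libraries correlated at -0.094, 0.047 and -0.018, within the range of differently numbered ones, -0.140 to 0.181. With the replicate block 1 gene was called higher and 4 lower. That fit held the P1 and P7 libraries alone with few residual degrees of freedom, so its loss of calls cannot speak to pairing. Without the genes counted differently between tables the counts were 209 and 260. Of 480 calls, 477 were kept with DESeq2, 473 with the 3 postnatal ages, 449 with RLE, 437 with the GC correction, 411 with no filter, 400 in the transcript table, 391 with upper-quartile scaling, 297 in the transcription start site table, 157 with P1 and P7 alone and 2 with the block. A missed call with 3 libraries a group does not show equal levels.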

Other observations

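Beyond the lists above, 3 groups were put together after their values were seen and get no test. The median log2 fold change of 26 genes of multiciliated cells and motile cilia was -1.19, with 24 negative values. Of these genes 7 were called lower and 0 higher, against 1.74% and 1.4% of all genes. Besides Deup1 and Gmnc they included the tubulin-modifying enzyme gene Ttll6, at 2.32, 4.73 and 2.15 CPM at P1 and 0.351, 0.773 and 0.347 CPM at P7, and Cdc20b, at 2.7, 2.95 and 0.791 CPM and 0.175, 0.331 and 0.501 CPM. They were called in 4 and 2 of the 6 fits that each leave out 1 library, and Dlec1 and Lrrc23, at -2.05 and -1.98, in 2 each. Foxj1, the motile cilium factor, was at 21.1, 33.8 and 16.1 CPM and 8.59, 14.6 and 13.1 CPM without overlap, with an adjusted p of 0.0945. Mcidas and Rfx2 had log2 fold changes of -0.16 and 0.25. Without P1 replicate 3, 10 of the 26 genes were called lower, against 2.61% of all genes.

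Of 24 hindbrain patterning and dorsal lineage factors, 11 were called lower and 0 higher, against 1.74% and 1.4% of all genes. The median was -2.27, and 14 were lower without P1 replicate 3, where 2.61% of all genes were. The retinoic acid degrading enzyme gene Cyp26b1 fell from 263, 244 and 103 CPM to 50.9, 41.6 and 48.5 CPM (log2 fold change -2.11, adjusted p = 0.0115, 4 of the 6 fits). The homeobox genes Msx3 and Lmx1b went from 1.36 to 2.49 CPM to 0.117 to 0.276 CPM and from 1.28 to 2.79 CPM to 0.0877 to 0.424 CPM. The retinal and neuronal factor Pou4f2 was at 0.942 to 2.83 CPM at P1 and 0 to 0.077 CPM at P7. All 3 were called in 4 of the 6 fits. En1 and En2, which mark the cerebellar territory, had values of 0.17 and 0.12 and were not called.

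Of 18 neuropeptides and peptide receptors, 6 were called lower and 0 higher, against 1.74% and 1.4% of all genes. The median was -1.06, and 7 were lower without P1 replicate 3, where 2.61% of all genes were. The peptide precursor Cartpt went from 5.11, 2.48 and 1.17 CPM to 0.0585, 0.0828 and 0.154 CPM (log2 fold change -4.88, adjusted p = 0.00888, 5 of the 6 fits). Tac2, Grp and Sst, the precursors of neurokinin B, gastrin-releasing peptide and somatostatin, fell by 2.38, 1.94 and 2.31 on the log2 scale and were called in 3, 4 and 1 of the 6 fits. The receptor genes Prokr2 and Sstr3 were also lower (adjusted p = 0.0153 for both), each called in 3.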
